A study of Mus musculus with 15 samples.

Results

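The genes described here are the nuclear-encoded subunits of the 5 complexes of the mitochondrial respiratory chain and ATP synthase. They were chosen by name, as protein-coding genes outside the mitochondrial chromosome whose symbols start with Ndufa, Ndufb, Ndufc, Ndufs, Ndufv, Uqcr, Cox4 to Cox8 or Atp5, together with Sdha to Sdhd and Cyc1. Assembly factors named Ndufaf and names with the pseudogene mark were left out. The rule held 87 of the 55401 genes counted, namely 36 of complex I, 4 of complex II, 9 of complex III, 20 of complex IV and 18 of complex V, with Ndufa4 and Ndufa4l2 placed in complex IV. RNA came from the hippocampus of 15 female mice. The paper's methods give their age as 18 to 20 months. A passage of its discussion puts the mice at an older age, while other passages there name 18 months. The Alzheimer's disease model line Tg2576 (+/+ in the labels) carries a prion-promoter transgene that encodes a human APP of the Swedish familial form, and littermates without it (-/-) served as WT mice. Each genotype received sesame oil as the vehicle or 450 mg/kg of docosahexaenoic acid (DHA) daily into the stomach for 5 weeks, so that there were 3 Tg2576 mice given DHA and 4 mice in each of the other groups. Vehicle mice thus also received an oil, and no untreated mouse was compared. The labels do not say how far the mice were independent in litter or cage, and p-values measure the spread between these mice.

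Complex I (NADH dehydrogenase) and complex II (succinate dehydrogenase) pass electrons from NADH and succinate to ubiquinone, complex III passes them on to cytochrome c, and complex IV (cytochrome c oxidase) hands them to oxygen. Complexes I, III and IV pump protons across the inner mitochondrial membrane, and complex V, the ATP synthase, uses the gradient to make ATP. Most subunits are made from nuclear genes and imported, while mitochondrial DNA encodes a core of hydrophobic subunits in every complex but II. Neurons depend on this pathway for the energy that synaptic signalling consumes. Nuclear promoters of these genes are known to hold sites for NRF1, the ETS factor GABP and YY1.

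Total counts per mouse ranged from 17372864 to 46596489, and members took 1.0 to 1.42% of them. App counts were higher in every Tg2576 mouse than in every WT mouse (2076 to 2787 against 1572 to 1787 CPM, counts scaled by library size). Markers of dentate granule cells (4 of 4), CA1 (3 of 3) and CA3 (3 of 3) pyramidal neurons were all measured in this tissue. The 7 choroid plexus markers varied widely, with a sum of 62.5 to 5836 CPM over the 15 mice, and all 3 Tg2576 DHA mice lay high, at 3112 to 5159 CPM. In bulk tissue, fewer cells of a type and less RNA per cell cannot be told apart. Of the 87 members, 84 passed the filter on low counts in the table of 19536 genes tested. Cox8c, a testis isoform, and the second gene identifier named Atp5o were at 0 counts in all 15 mice. Cox7b2, another testis isoform, had 0 to 10 counts a mouse and was not tested.

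Subunit transcripts were abundant. As CPM per kilobase of gene model (RPKM), the 84 tested members had a median level of 64.3, against 3.04 for all genes tested. Among all genes, 68 of the 84 were in the top 10% by this level and 11 in the top 1%. Their gene models were short, with a median of 1578 bases against 3693. Complex IV spanned the widest range of levels, from Cox8a at 732 ± 116 (SD, n = 15 mice), an isoform of the small membrane subunit VIII, down to Cox4i2 at 2.10 ± 0.62. In complex V the subunits Atp5a1 (alpha, 273 ± 15.8) and Atp5b (beta, 263 ± 17.2) led, and did not differ beyond their spread. Atp5l, a membrane subunit, was lowest at 4.42 ± 0.65, on a gene model of 6443 bases, with 7.63% of its 50-base words shared with 284 other genes. In complex III the small subunit Uqcr11 led at 237 ± 42.1 and the core protein Uqcrc2 was lowest at 55.7 ± 2.90. Complex I ran from the accessory subunit Ndufa13 (157 ± 28) to Ndufb2 (4.12 ± 0.45), whose gene model was 5628 bases long. In complex II the order Sdha, Sdhd, Sdhb, Sdhc (92.2, 64.2, 54.2 and 30.6) was separated by more than the spread at each step. Of the 35 neighbouring pairs in the order of complex I, 30 differed by less than the larger SD of the pair, as did 5 of 8 in complex III, 9 of 19 in complex IV and 11 of 17 in complex V.

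**Figure D1:**
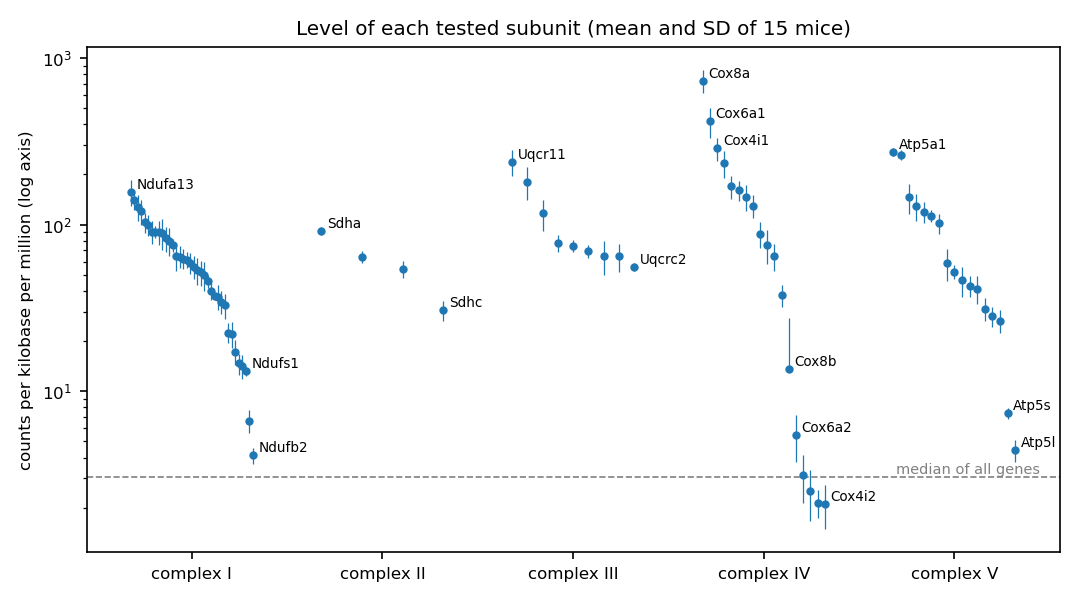
Mean level of each of the 84 tested subunits, in RPKM (log axis), by complex, with SD bars over 15 mice and a dashed line at the median of all genes tested (3.04). Cox8b has no lower bar because its SD (14) was larger than its mean (13.6), and members are spread along each complex by falling level from Cox8a (732) to Cox4i2 (2.10).

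Nuclear redox subunits of complex I, which carry its flavin and iron-sulfur clusters, did not have a common level. Ndufv1 (75 ± 6.51), Ndufs8 (64.3 ± 9.71), Ndufv2 (62.5 ± 8.56) and Ndufs7 (59.0 ± 8.70) were above Ndufs3 (39.9 ± 4.51), and Ndufs1, the largest subunit of the complex, was at 13.2 ± 0.83 RPKM on a gene model of 8086 bases. Cyc1, the cytochrome c1 of complex III, and Uqcrfs1, its Rieske iron-sulfur protein, were at 74.7 ± 5.78 and 77.9 ± 8.93.

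Where a subunit has tissue isoforms, the ubiquitous form dominated in every mouse. Per length, Cox4i1 exceeded Cox4i2, the form known from lung and hypoxic cells, by 103 to 214 times over the 15 mice (median 140). Cox6a1 exceeded the heart and muscle form Cox6a2 by 45.1 to 140 times (median 74.8). Cox6b1 exceeded the testis form Cox6b2 by 48.1 to 152 times (median 68.2). For Cox7a2 over the muscle form Cox7a1 the ratio was 43.1 to 254 (median 57.9), and for Ndufa4 over Ndufa4l2 it was 51.7 to 129 (median 82.7). The rare forms had few reads, with 8 to 60 counts a mouse for Cox7a1 and 24 to 68 for Cox4i2. The ratio of Cox8a to the muscle form Cox8b was the least steady, at 16.0 to 347 (median 85.5). The Atp5g genes encode an identical mature subunit c of the ATP synthase ring. Among them Atp5g3 was at 102 ± 14 RPKM and exceeded Atp5g1 by 2.71 to 3.94 times and Atp5g2 by 3.06 to 4.33 times in the 15 mice. In Atp5g2, 38.3% of the 50-base words of its transcripts also occur in 3 other genes, mainly Gm10175, so its counts are uncertain. Cox7a2l, a factor of supercomplex assembly, was at 75.4 ± 17.4 RPKM and Cox7b at 130 ± 19.8.

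RefSeq promoters (build GRCm38.p6, 250 bases before to 50 after the start of transcription) were found for 69 of the 87 members. The NRF1 core GCGCANGCG stood on either strand in 20 of these 69 genes (29.0%), against 7.03% of all 27025 genes in the table. The ETS core CCGGAAG was held by 16 (23.2%, against 9.93%) and the YY1 core AANATGGC by 17 (24.6%, against 6.96%). The 27025 genes were not filtered by type or expression, whereas the members are protein-coding and mostly abundant here. Overlaps between motifs were allowed, and 43 of the 69 genes held at least 1 of the 3 motifs. The 12 complex I genes with the YY1 core outnumbered the 8 with the NRF1 core and the 4 with the ETS core among 32, while in complex V 7 of 15 genes held the NRF1 core. A match is only a string of letters and says nothing of binding in this tissue. The promoters of the 3 members with the lowest p for the interaction of genotype and DHA are printed 5′ to 3′, with that of Cox8b, the tissue isoform whose counts varied most. Capitals mark the motif matches.
Atp5g2, chr15:102670998-102671297, minus strand: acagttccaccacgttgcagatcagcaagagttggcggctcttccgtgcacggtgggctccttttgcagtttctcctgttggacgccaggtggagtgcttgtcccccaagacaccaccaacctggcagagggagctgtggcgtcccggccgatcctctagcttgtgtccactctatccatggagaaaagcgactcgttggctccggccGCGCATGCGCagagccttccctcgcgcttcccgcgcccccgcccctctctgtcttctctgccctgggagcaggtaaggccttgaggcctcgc
Cox6a1, chr5:115348909-115349208, minus strand: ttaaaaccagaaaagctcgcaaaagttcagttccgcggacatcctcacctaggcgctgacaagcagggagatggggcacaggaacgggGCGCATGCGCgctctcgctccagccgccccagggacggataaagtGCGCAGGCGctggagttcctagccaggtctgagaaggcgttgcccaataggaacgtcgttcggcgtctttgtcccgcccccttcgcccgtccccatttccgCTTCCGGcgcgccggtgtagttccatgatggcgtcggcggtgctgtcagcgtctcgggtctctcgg
Ndufb8, chr19:44555393-44555692, minus strand: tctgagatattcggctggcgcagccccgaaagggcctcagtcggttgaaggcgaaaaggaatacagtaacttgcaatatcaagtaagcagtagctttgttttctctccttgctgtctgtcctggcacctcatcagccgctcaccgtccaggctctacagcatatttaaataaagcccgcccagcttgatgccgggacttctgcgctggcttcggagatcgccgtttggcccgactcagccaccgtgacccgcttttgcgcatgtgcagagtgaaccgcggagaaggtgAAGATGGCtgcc
Cox8b, chr7:140900397-140900696, minus strand: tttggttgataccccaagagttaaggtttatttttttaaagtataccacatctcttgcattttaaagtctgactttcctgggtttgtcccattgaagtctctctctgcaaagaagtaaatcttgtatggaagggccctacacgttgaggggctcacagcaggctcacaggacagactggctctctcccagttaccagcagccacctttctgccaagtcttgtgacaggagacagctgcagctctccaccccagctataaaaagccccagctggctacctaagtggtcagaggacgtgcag
The NRF1 core stood 42 bases before the start in Atp5g2, where it read on both strands, and 162 and 117 bases before it in Cox6a1. Cox6a1 also held the ETS core in reverse 16 bases before the start, and Ndufb8 the YY1 core 38 bases after it. In this window of Cox8b none of the 3 motifs was found.

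Most members went up and down together from mouse to mouse. Each member's log2 CPM was set against its mean over the 15 mice. The median of the 84 members was lowest in WT vehicle 1 (-0.22) and highest in Tg2576 vehicle 4 (0.35). In Tg2576 DHA 1, 83 of the 84 members were above their mean, and in WT DHA 2 only 3 were. The 4 WT vehicle mice had medians of -0.22, -0.15, -0.05 and 0.07, and the 4 WT DHA mice 0.02, -0.15, 0.16 and 0.13. The 4 Tg2576 vehicle mice had -0.19, -0.01, 0.15 and 0.35, and the 3 Tg2576 DHA mice 0.30, -0.22 and -0.15. All 4 groups overlapped. After centring each group, the first principal component held 70.9% of the variance of the 84 members, against 26.7% for all genes tested. The summed level of members followed the same order at its ends, from 10069 CPM in WT vehicle 1 to 13858 CPM in Tg2576 vehicle 4.

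**Figure D2:**
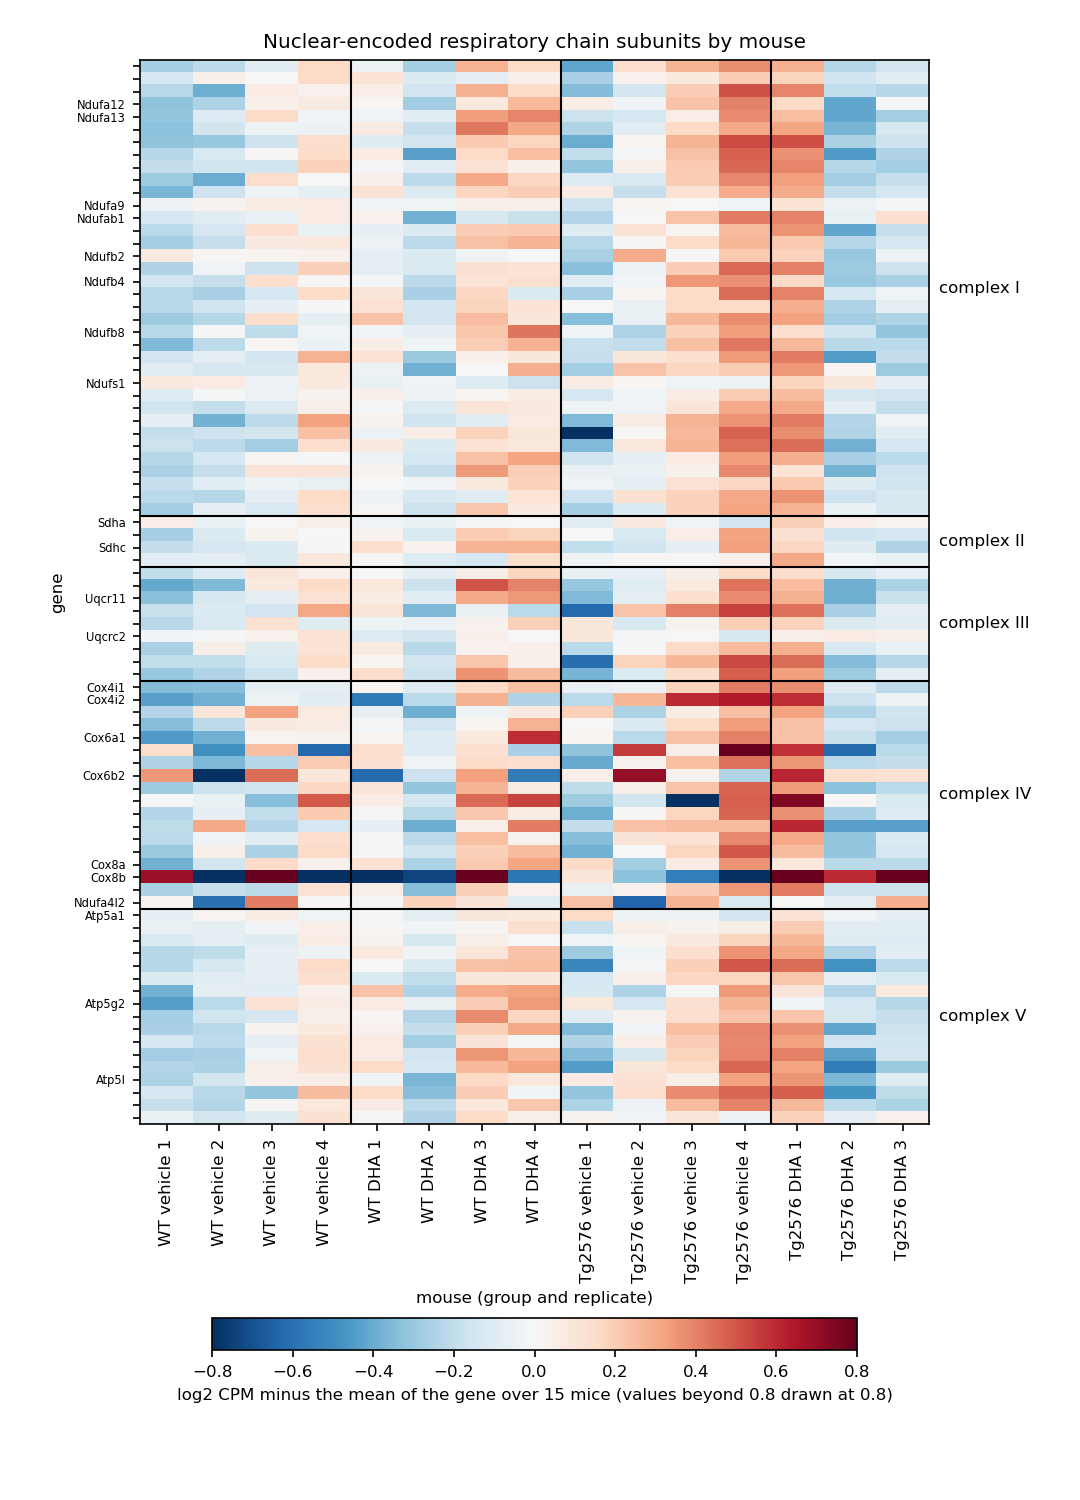
Deviation of each tested subunit (rows, by complex) from its own mean over 15 mice in log2 CPM, by mouse (columns, by group), with red for higher and blue for lower, and a name at some of the rows. Tg2576 vehicle 4 and Tg2576 DHA 1 are red through all complexes, WT vehicle 1 is mostly blue, and Cox8b does not follow the other rows.

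Each member was also compared with the median of all 84, to which it contributes, so some agreement was built in. No like count is given for other genes. Of the 84 members, 66 were on the same side of their mean as the median in at least 12 of the 15 mice. In fewer than 10 mice, 9 were so. These 9, named after their values were seen, were Cox8b, Ndufs1, Cox6b2, Ndufa4l2, Sdha, Atp5a1, Ndufb2, Ndufa9 and Uqcrc2. Several of them varied little over the mice, with SDs of the log2 CPM of 0.07 for Ndufa9, 0.08 for Uqcrc2, Sdha and Atp5a1, and 0.09 for Ndufs1, while Cox8b varied most (1.36).

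The order of the mice by members was close to that by cytosolic ribosomal protein genes, which share no function with the chain but are likewise short and abundant. The median of 77 ribosomal protein genes was also lowest in WT vehicle 1 (-0.28) and highest in Tg2576 vehicle 4 (0.41), and 10 of the 15 mice held the same rank in both orders. The difference between the median deviation of the shortest and the longest 20% of gene models (up to 1723 and from 6783 bases) ran from -0.25 in Tg2576 DHA 2 to 0.41 in Tg2576 DHA 1. The part of gene length or RNA quality in the members' values was not tested beyond the length offset given below. The 12 tested subunits encoded in mitochondrial DNA were ordered otherwise, with the highest median in Tg2576 vehicle 3 (0.45) and the lowest in WT vehicle 2 (-0.45).

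**Figure D3:**
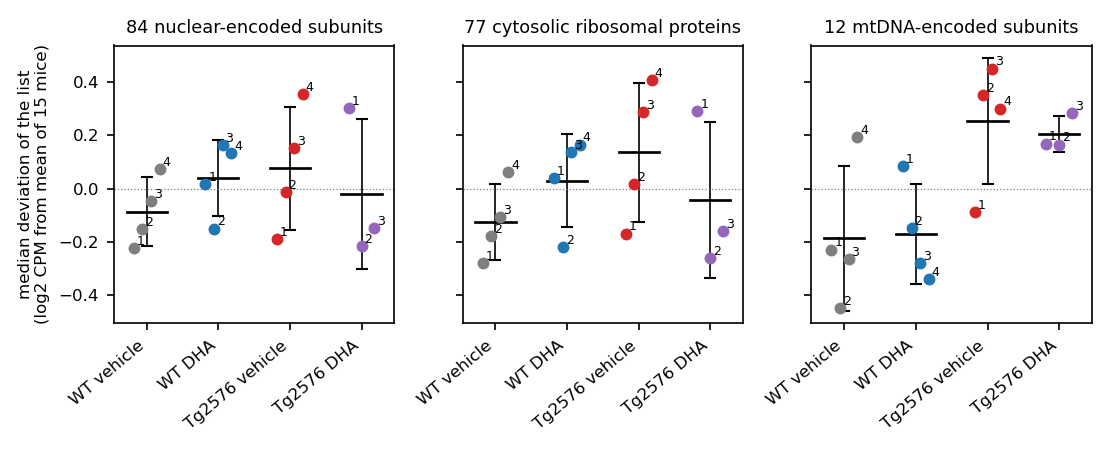
Median deviation of each gene list from its mean over 15 mice (log2 CPM), by mouse, for nuclear-encoded subunits, cytosolic ribosomal protein genes and subunits encoded in mitochondrial DNA (numbers are replicate labels, lines are group means, bars are SD). In the left and middle panels the groups overlap and single mice hold nearly the same places, from -0.22 to 0.35 for the subunits, while in the right panel most Tg2576 mice lie above most WT mice.

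The comparison of Tg2576 with WT mice under vehicle asks what the transgene changed in old hippocampus. Most subunits of all 5 complexes had higher values in Tg2576 mice, but none passed the threshold of an unadjusted p under 0.01 in edgeR's quasi-likelihood test. The median log2 fold change of the 84 members was 0.17 (quartiles 0.12 and 0.21), against 0.00 for all genes, and 75 of 84 were above 0, against 50% of all genes. The medians were 0.18 for the accessory subunits of complex I, 0.14 for its redox core, 0.08 for complex II, 0.14 for complex III, 0.19 for complex IV and 0.17 for complex V. No member was called where 3.09% of all genes were, and 2 of 84 had a p under 0.05, against 10.7% of all genes. DESeq2 and limma-voom called 0 members as well. Cox4i1, a structural subunit of complex IV on chr8:120668222-120674207, was at 345, 346, 415 and 415 CPM in WT vehicle mice and at 420, 425, 497 and 584 CPM in Tg2576 vehicle mice. The groups did not overlap (log2 fold change 0.34 ± 0.13 (SE), edgeR adjusted p = 0.372, exact permutation p = 0.0286, the smallest that 4 against 4 mice can give). Cox4i2 followed (0.61 ± 0.27, edgeR adjusted p = 0.432), at 1.16 to 1.55 CPM in WT vehicle and 1.36 to 2.52 CPM in Tg2576 vehicle mice, which overlapped. Ndufa12, an accessory subunit of complex I, came next (0.28 ± 0.14, edgeR adjusted p = 0.493), with 17.7% of its 50-base words shared with Gm15920. Atp5l was the other member without overlap, so that 2 of 84 did not overlap against 5.16% of all genes. The median was 0.09 without Tg2576 vehicle 4 and 0.25 without Tg2576 vehicle 1. Without Tg2576 DHA 1, a mouse outside these 2 groups that enters the common estimate of spread, Cox4i1 was called. Genes of any kind with models up to 1578 bases had a median of 0.11 in this comparison and longer ones -0.01. An offset for gene length lowered the members' median to 0.09, with Cox4i1 then called. The 3.09% of all genes is from the fit of all mice without the offset, and the shares in these other fits are not given here.

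Under DHA, the genotypes showed no common direction in these genes. The members' median was -0.04 (quartiles -0.12 and 0.03), and 54 of 84 had lower values in Tg2576 mice, against 50.7% of all genes. DESeq2 and limma-voom called no member. In edgeR none was called, against 1.75% of all genes, and 1 had a p under 0.05, against 6.86%. That member was Ndufab1, the mitochondrial acyl carrier protein that is also a complex I subunit, at 34.7, 40.1, 41.4 and 46.4 CPM in WT DHA and 43.4, 49.8 and 59.7 CPM in Tg2576 DHA mice (0.33 ± 0.14, edgeR adjusted p = 0.696). The groups overlapped. Ndufs1 (0.16 ± 0.08, edgeR adjusted p = 0.728) was higher and Atp5g2 (-0.27 ± 0.13, edgeR adjusted p = 0.734) lower in Tg2576 mice. Sdha, the flavoprotein of complex II, was at 366 to 381 CPM in WT DHA and 385 to 434 CPM in Tg2576 DHA mice, and with Uqcrc2 made 2 of 84 members without overlap, against 8.56% of all genes (exact permutation p = 0.0571 for Sdha, the smallest that 4 against 3 mice can give). The direction of the median rested on single mice. Without Tg2576 DHA 1 it was -0.23 and Ndufa13 was called, while without Tg2576 DHA 2 it was 0.05 and without Tg2576 DHA 3 it was 0.02. Without WT DHA 2, 3 or 4 it was -0.10, -0.01 and -0.02. Library sizes without TMM scaling gave 0.00, and a fit with the replicate number as a block gave 0.01. The share of all genes called in the fit without Tg2576 DHA 1 is not given here.

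In WT mice, DHA is compared with vehicle to ask what the fatty acid does without the transgene. The members' median was 0.12 (quartiles 0.05 and 0.20), and 74 of 84 had higher values under DHA, against 47.3% of all genes, among them all 17 tested members of complex V. DESeq2 and limma-voom called no member. In edgeR none was called, against 1.38% of all genes, and 2 had a p under 0.05, against 5.92%. Sdhc, a membrane anchor of complex II with a heme, on chr1:171127165-171150603, was at 86.5, 89.6, 91.5 and 97.5 CPM under vehicle and 101, 108, 119 and 119 CPM under DHA. The groups did not overlap (0.29 ± 0.11, edgeR adjusted p = 0.760, exact permutation p = 0.0286). Cox4i1 was at 409 to 519 CPM under DHA, which overlapped the vehicle mice (0.29 ± 0.13, edgeR adjusted p = 0.838), and Ndufa8, an accessory subunit, came next (0.25 ± 0.12, edgeR adjusted p = 0.855). Atp5d, the delta subunit of ATP synthase, and Ndufv1, the flavoprotein that takes electrons from NADH, were also higher without overlap, and Ndufb2 was lower, which made 4 of 84, against 5.02% of all genes. Fitted on the WT mice alone, Sdhc was called, as it was without Tg2576 vehicle 4 and without Tg2576 DHA 1. Without WT DHA 2, Atp5g1 was called and the median was 0.19, as it was without WT vehicle 4. Without WT DHA 3 the median was 0.07. For the fits that called Sdhc or Atp5g1, the share of all genes called is not given here. The WT vehicle mice stand both in this comparison and in that of genotype under vehicle.

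In Tg2576 mice the values under DHA leaned the other way, with a median of -0.09 (quartiles -0.14 and -0.03) and 71 of 84 members lower, against 50.9% of all genes. DESeq2 and limma-voom called no member. In edgeR none was called, against 0.353% of all genes, and none had a p under 0.05, against 3.16%. The lowest p was that of Ndufb4, an accessory subunit of complex I, at 26.1, 27.4, 35.5 and 35.9 CPM under vehicle and 31.0, 22.5 and 23.3 CPM under DHA, which overlapped (-0.29 ± 0.14, edgeR adjusted p = 0.999). Sdha was higher (0.14 ± 0.08, edgeR adjusted p = 0.999) and Atp5g2 lower (-0.22 ± 0.13, edgeR adjusted p = 0.999). The lean of the median depended on which Tg2576 mouse was present. It was -0.27 without Tg2576 DHA 1, where Ndufb4 and Cox7a2l were called (2 members). The 0.353% of all genes is from the fit of all mice, and the share in the fit without that mouse is not given here. The median was 0.02 without Tg2576 DHA 2, -0.01 without Tg2576 DHA 3, and -0.18 and -0.00 without Tg2576 vehicle 1 and 4.

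Cox8b was the single member whose groups did not overlap in that comparison, against 3.21% of all genes. It encodes the heart and muscle form of subunit VIII and lies on chr7:140898945-140900446. It was at 8.42, 4.85 and 7.59 CPM in Tg2576 DHA mice and at 3.41, 2.52, 2.15 and 1.22 CPM in Tg2576 vehicle mice (1.59 ± 1.04, edgeR adjusted p = 0.999, exact permutation p = 0.0571). A fit on the Tg2576 mice alone, for which the share of all genes called is not given here, called it. In WT mice it ran from 0.677 to 12.2 CPM under vehicle and from 0.968 to 18.8 CPM under DHA. Over the 15 mice its counts followed Ttr (transthyretin), the most abundant choroid plexus marker. The 8 mice with the highest Cox8b were the 8 with the highest Ttr, and the top 3 were the same, namely WT DHA 3, WT vehicle 3 and Tg2576 DHA 1. The 3 Tg2576 DHA mice were at 2908 to 4964 CPM of Ttr, and the Tg2576 vehicle mice at 117 to 2970 CPM. All 7 choroid plexus markers had higher fitted values under DHA in Tg2576 mice (median 1.13), and none was called. Of the 6 skeletal and cardiac muscle markers, 3 were tested, and their list summed to 9.84 to 21.5 CPM over all mice. The part of choroid plexus tissue in the Cox8b values was not tested.

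**Figure D4:**
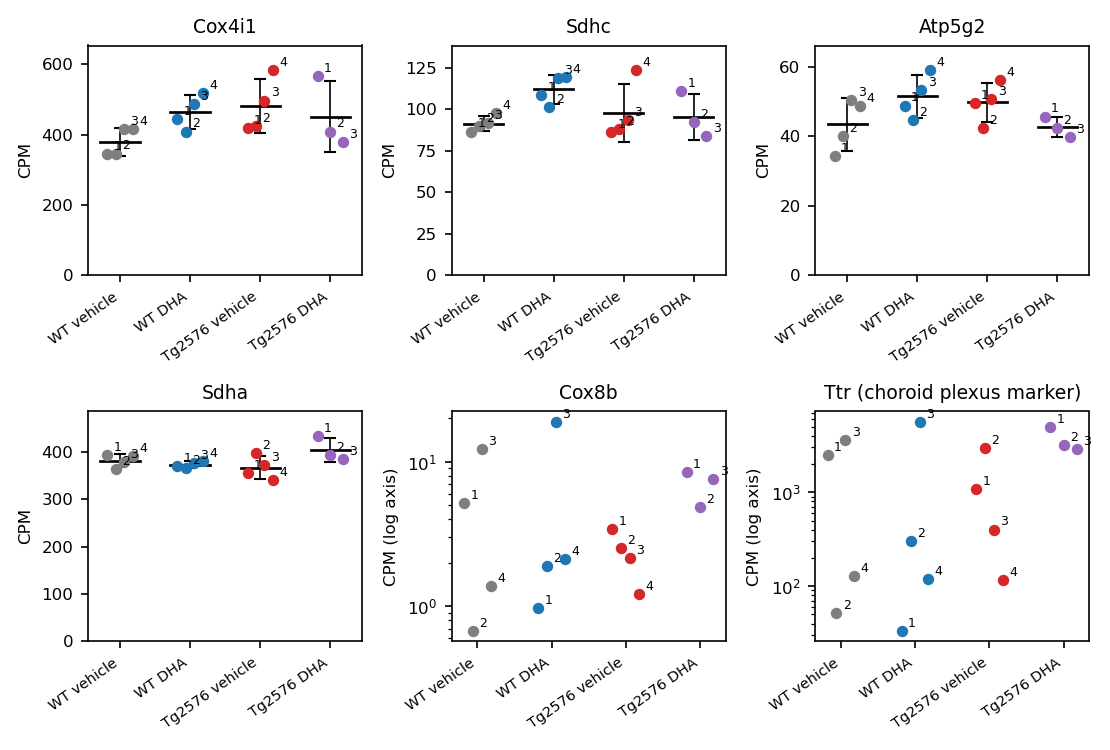
CPM by mouse and group (numbers are replicate labels) for Cox4i1, Sdhc, Atp5g2 and Sdha, with group mean and SD, and for Cox8b and the choroid plexus marker Ttr on log axes without means. The group means of Cox4i1 and Sdhc are lowest in WT vehicle mice (380 and 91.3 CPM), with overlap among the other groups, and the mice highest in Cox8b (WT DHA 3 at 18.8 CPM) are those highest in Ttr (5603 CPM).

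The interaction asks whether DHA acted differently in the genotypes, as the DHA effect in Tg2576 mice minus that in WT mice. The median of members was -0.25 (quartiles -0.33 and -0.08), and 72 of 84 were below 0, against 49.4% of all genes. By complex the medians were -0.25 (complex I accessory), -0.19 (complex I core), -0.12 (II), -0.17 (III), -0.23 (IV) and -0.28 (V). DESeq2 and limma-voom called no member. In edgeR none was called, against 0.829% of all genes, and 2 had a p under 0.05, against 5.12%. Atp5g2 had the lowest p (-0.47 ± 0.18, edgeR adjusted p = 0.845), with 34.4, 40.2, 50.5 and 48.8 CPM under vehicle and 48.9, 44.8, 53.5 and 59.2 CPM under DHA in WT mice. In Tg2576 mice it was at 49.6, 42.5, 50.9 and 56.3 CPM under vehicle and at 45.7, 42.3 and 39.9 CPM under DHA, and the groups overlapped in both genotypes. Ndufb8, an accessory subunit of complex I (-0.44 ± 0.20, edgeR adjusted p = 0.845), and Cox6a1, the ubiquitous subunit VIa of complex IV (-0.54 ± 0.25, edgeR adjusted p = 0.845), came next. Ndufs1 (0.21 ± 0.11) and Sdha (0.17 ± 0.10) were among the 12 members above 0. Leaving out mice moved the count. The share of all genes called above is that of the fit of all mice, and the shares in the fits below are not given here. Without Tg2576 DHA 1, 5 members were called (Cox4i1, Ndufa8, Atp5k, Ndufb10 and Ndufb8) and the median was -0.44, without Tg2576 DHA 2 it was -0.13, without Tg2576 vehicle 4 it was -0.15, and without Tg2576 vehicle 2 or WT vehicle 3 Atp5g2 was called.

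**Figure D5:**
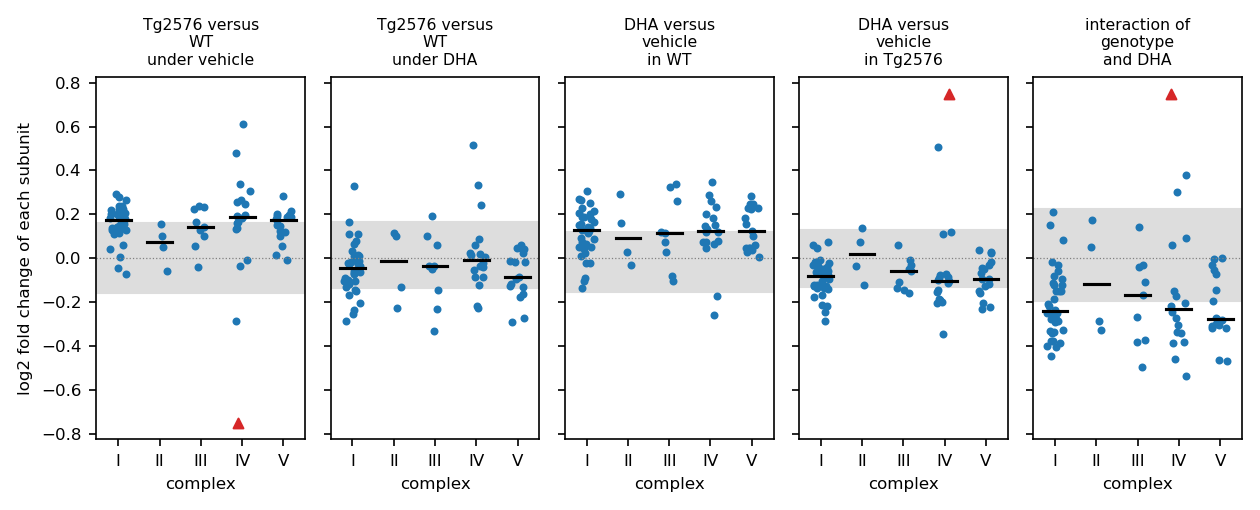
Fitted log2 fold change of each of the 84 tested subunits (points) in the 5 comparisons, by complex, with a black line at the median of each complex and a grey band for the middle quartiles of all genes tested; red triangles mark Cox8b, drawn at the edge of the axis where it lies beyond 0.75 either way (-1.08, 1.59 and 1.33). Medians of all 5 complexes lie above 0 for genotype under vehicle and for DHA in WT mice, and below 0 for the interaction, and no point passed the threshold.

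Short and long members leaned alike but not equally. In the comparison of genotype under vehicle, the median was 0.18 for the 42 members with models up to 1578 bases and 0.15 for the 42 longer ones. For DHA in WT mice they were 0.14 and 0.09, for DHA in Tg2576 mice -0.12 and -0.06, and for the interaction -0.28 and -0.18. All genes with models up to 1578 bases (3469) had medians of 0.05, -0.06 and -0.11 in these 3 comparisons.

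Among the other genes of the pathway, from lists made with earlier results of these data known, few were called. Of all genes, 3.09% were called for genotype under vehicle and 1.75% for genotype under DHA. The shares were 1.38% for DHA in WT mice, 0.353% for DHA in Tg2576 mice and 0.829% for the interaction. All 12 tested subunits of mitochondrial DNA had higher values in Tg2576 than WT vehicle mice (median 0.53), and mt-Nd6 (0.66 ± 0.16), mt-Atp6 (0.95 ± 0.30) and mt-Nd3 (0.98 ± 0.33) rose at an unadjusted p under 0.01 in edgeR (adjusted p 0.177 to 0.317). Under DHA 11 of 12 were higher (median 0.42). The same 3 were called, at 0.57, 1.08 and 1.10 (edgeR adjusted p 0.542 to 0.560), and DHA itself called 0 of 12 in either genotype. Of 48 assembly factors tested (15 for complex I, 4 for complex II, 6 for complex III, 19 for complex IV and 4 for ATP synthase), 1 was called in any comparison. That was Taco1, a translational activator of the mitochondrial Cox1 message, which fell in Tg2576 vehicle mice (-0.48 ± 0.16, edgeR adjusted p = 0.297). Of the 11 genes for cytochrome c and ubiquinone synthesis, Pdss1, which starts the ubiquinone side chain, rose in Tg2576 vehicle mice (0.39 ± 0.12, edgeR adjusted p = 0.283) and Coq9 rose with DHA in WT mice (0.25 ± 0.08, edgeR adjusted p = 0.610). Of the 12 regulators of mitochondrial biogenesis, 2 had higher values in Tg2576 than WT vehicle mice and none was called there (median -0.09), and Tfb2m, a mitochondrial transcription factor, fell with DHA in WT mice (-0.57 ± 0.18, edgeR adjusted p = 0.625). None of the 13 tricarboxylic acid cycle enzymes was called in any comparison, and their median stayed between -0.01 and 0.04. The 77 ribosomal protein genes leaned as the members did, with 76 higher in Tg2576 vehicle mice (median 0.26), 74 higher under DHA in WT mice (0.14), 4 higher under DHA in Tg2576 mice (-0.17), and a median interaction of -0.33. Under DHA 20 of the 77 were higher in Tg2576 mice (median -0.04). Of them Rpl30 rose in Tg2576 vehicle mice (0.57 ± 0.17, edgeR adjusted p = 0.232) and Rpl35a in Tg2576 DHA mice (0.48 ± 0.16, edgeR adjusted p = 0.560).

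Markers of other cells moved beside these comparisons. The summed neuronal markers were at 5766 to 6431 CPM in WT vehicle and 5814 to 6122 CPM in Tg2576 vehicle mice, with Gad1 and Gad2 called lower in the latter. Oligodendrocyte markers, at 7168 to 7767 CPM in WT vehicle mice, were lower by fitted value for 7 of 7 genes under DHA in WT mice (median -0.21) and for 5 of 7 in Tg2576 vehicle mice (median -0.23), with none called. Astrocytic Gfap rose in both genotype comparisons (1.02 ± 0.18 and 1.01 ± 0.19). Of the 6 astrocyte markers, however, only 2 had higher values in Tg2576 mice under vehicle (median -0.08), and 5 did under DHA (median 0.06). The microglial markers P2ry12 (0.51 ± 0.17), Cx3cr1 (0.49 ± 0.16) and Csf1r (0.42 ± 0.11) were called higher in Tg2576 DHA than in WT DHA mice. Endothelial markers summed to 122 to 192 CPM and pericyte markers to 106 to 190 CPM over all mice. Markers of parvalbumin interneurons (607 to 786 CPM), ependyma (17.2 to 57.8 CPM) and meninges (22 to 101 CPM) had no call but Gad1. Of the hippocampal neuron markers, Prox1 (-0.46 ± 0.12) and Cpne4 (-0.42 ± 0.10) fell in Tg2576 vehicle mice. Prox1 also fell with DHA in WT mice (-0.37 ± 0.12). In both of these comparisons 2 of the 4 dentate granule cell markers had higher values. Wfs1 rose with DHA in WT mice (0.31 ± 0.09) and was lower in Tg2576 than WT mice under DHA (-0.40 ± 0.09). Of the 3 CA1 markers, 2 had higher values with DHA in WT mice, and 1 did in Tg2576 than in WT mice under DHA. Further calls were Ly6c1, higher in Tg2576 vehicle mice (0.58 ± 0.17), and Mobp, lower with DHA in Tg2576 mice (-0.46 ± 0.13). Slc17a7 was called lower in Tg2576 than WT mice under DHA (-0.32 ± 0.11), where 3 of the 7 neuronal markers had higher values (median -0.01). Over the calls named for these markers, the edgeR adjusted p ran from 0.0766 (Gfap under vehicle) to 0.999 (Mobp). The part of these cells in the members' values was not tested.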

How the data were processed

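RNA of the hippocampus of 15 mice was sequenced as mRNA libraries. The labels name a SMARTER kit with 1.3 µg of RNA, while the study's methods name a TruSeq stranded kit with 1 µg. According to the submitters' processing notes, reads were checked with FastQC 0.11.8 and mapped with STAR 2.6.1c, and the authors deposited raw counts per gene from featureCounts 1.6.0 (exons, GENCODE annotation on GRCm38), as the file headers also show. The command in the headers sets neither strand nor counting of reads with several matches. Symbols came from another GENCODE release. Counts were fitted with edgeR 4.0.16 in R 4.3.3 (quasi-likelihood test, robust, TMM scaling, filterByExpr) in 1 fit of 4 groups. A gene was called at an unadjusted p under 0.01, two-sided, and Benjamini-Hochberg values cover 19536 genes. Levels are TMM-scaled CPM, or RPKM on the gene length in the files. Single members were also compared by an exact two-sided permutation test. DESeq2 1.42.0 and limma-voom 3.58.1 were alternatives, besides other scalings, filters, offsets for length and GC content, a replicate block and leaving out each mouse. Scripts were tested on simulated data. The members, gene lists and tests were chosen with earlier results of these data known. Members were named by the 3 lowest p in each comparison and by the highest and lowest level in each complex. Tissue isoforms, redox and catalytic subunits with Atp5a1, and calls in other lists were named too. Replicate numbers were not treated as pairs, since 3 of 14 same-numbered pairs correlated above 0.1 (range -0.24 to 0.21). Mice of different numbers were not correlated for comparison, so this cannot tell whether the numbers pair the mice. Some genes of the lists are not reported here.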

Additional observations from a re-analysis of the deposited data

Results flagged for a closer look

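Among 153 groups of 4 mice, over the members named, the summed levels of the complexes and the members' median, 8 held 1 mouse far from the other three by Dixon's test at the 95% level, which chance gives in about 1 in 20 groups. Cox8b in WT DHA 3 was at 18.8 CPM, against 0.968 to 2.11 CPM in the other mice of its group, and Ttr was also highest in that mouse. Cox7a2l stood apart in WT vehicle 2 (134 CPM, against 92.5 to 99.2) and, in the other direction, in Tg2576 vehicle 1 (95.1 CPM, against 128 to 130). WT DHA 2 was low in Cox6b1 (160 CPM, against 178 to 180) and in Uqcrfs1 (90.7 CPM, against 108 to 111). Tg2576 vehicle 1 was low in Atp5b, at 983 CPM against 1132 to 1149. Ndufs1 was low in WT vehicle 3 (103 CPM, against 111 to 112), and Ndufa4 was high in WT vehicle 4 (251 CPM, against 194 to 204). The groups of 3 Tg2576 DHA mice were not tested in this way.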

How the results depend on the processing

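With 3 or 4 mice a group, the count of members called in edgeR stayed at 0 in most settings. In WT mice under DHA against vehicle it was 1 with no filter on low counts, 1 with only the 2 groups compared (Sdhc both times) and 3 with a replicate block and an offset for gene length (Sdhc, Cox6a1 and Cox4i1). For Tg2576 against WT under vehicle it was 1 (Cox4i1) with the length offset, with or without the block. For DHA against vehicle in Tg2576 mice it was 1 (Cox8b) with only the 2 groups compared. The causes were not tested. The replicate block alone left 0 members called in each of the 5 comparisons. Whether mice of the same number shared a litter, cage or batch was not tested. Leaving out 1 mouse gave 0 to 1 members called in both genotype comparisons and for DHA in WT mice, 0 to 2 for DHA in Tg2576 mice and 0 to 5 for the interaction. The members' medians ran from 0.09 to 0.25 for genotype under vehicle, from -0.23 to 0.05 under DHA, from 0.07 to 0.19 for DHA in WT mice, from -0.27 to 0.02 for DHA in Tg2576 mice and from -0.44 to -0.13 for the interaction. With the length offset they were 0.09, -0.04, 0.08, -0.05 and -0.16. The interaction could not be fitted with only 2 groups. The shares of all genes called in these other settings are not given here, so the counts of members are not set against them. Counting Usmg5, Atpif1 and Ndufb1-ps as members, an alternative chosen after seeing the data, moved no count from 0.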
